A study of Drosophila melanogaster with 6 samples.

Results

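Expression of the T5 form of human AKT1 in somatic cells of the fly ovary was compared with the LP (landing pad) control. T5 carries an in-frame tandem duplication in the pleckstrin homology domain of AKT1. The comparison used 6 of the 18 libraries of the series, 3 of T5 and 3 of LP, and all 9043 of 17493 genes with a normalized count of at least 10 in 3 or more of these 6 libraries. T5 flies carried traffic jam-GAL4 and a UAS transgene for FLAG-tagged T5 AKT1 inserted at the 51C landing site, and LP flies carried traffic jam-GAL4 with that site empty. The driver was thus shared by both groups. Other lines with the same driver carried WT AKT1, the T1 or T15 duplication or the Q79K-W80R double substitution. Each library came from 30 pairs of ovaries of an individual cross, which were digested with trypsin and collagenase and passed through a mesh, with no cell sort described. The 3 libraries of a line come from separate crosses but from 1 line, so the tests measure the spread between crosses. Neither the labels nor the methods give the age of the females.

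AKT is a kinase that insulin and growth factor receptors activate through PI3K. Its pleckstrin homology domain binds the PI3K product at the plasma membrane, where the kinase PDK1 phosphorylates it. Active AKT keeps the transcription factor FOXO out of the nucleus and raises the activity of the TOR complex. In flies this cascade sets cell size, protein synthesis and the use of stored nutrients, and the follicle cells it acts on here form the epithelium around each germline cyst and secrete the eggshell.

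The matrix holds fly genes, so the human transgene was not measured and the T5 genotype could not be checked from it. The fly Akt gene had normalized counts of 2939, 2876 and 3097 in T5, against 3109, 3386 and 3029 in LP, a Log2FC of -0.09 ± 0.07 (SE; adjusted p = 0.456, limma). tj (traffic jam), the gene whose enhancer drives GAL4 and a marker of the somatic ovary cells, had 11933, 14047 and 11526 in T5, against 16995, 20471 and 16998 in LP. Its libraries did not overlap, and its Log2FC of -0.54 did not pass (adjusted p = 0.0544). Deposited values summed to 23.6 to 25.3 M per library in T5 and 24.8 to 26.7 M in LP. From the lowest values, 1 read was worth about 0.828 to 0.993 normalized counts in T5 and about 0.853 to 1.11 in LP. Read depths of the groups thus overlapped. T5 library 2 stood apart from the other T5 libraries. Among the 257 genes called below, it was the T5 library nearest to the LP mean in 163 (63.4%), and among all 9043 tested genes in 3755 (41.5%). Counts are therefore given with and without it. Leaving out the library nearest to LP tends to widen the difference, so a higher count without it adds no support for a change.

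Log2FC is the difference of the group means of log2(normalized count + 1), T5 minus LP, and the added 1 draws it towards 0 in genes with few reads. A gene was called at an adjusted p under 0.05 with a change of at least 1.5-fold. By limma with Benjamini-Hochberg adjustment over all tested genes, 257 of 9043 genes (2.84%) were called, 180 higher in T5 (1.99%) and 77 lower in T5 (0.851%). In each of the 257 the T5 and LP libraries did not overlap, which was so in 2683 (29.7%) of the tested genes. An unadjusted p under 0.05 held for 2178 of the 9043 genes, and such counts in the lists below are to be read beside that share. Counts of called genes in the lists are likewise to be read beside the 1.99% higher and 0.851% lower of all tested genes. The number of called genes rested on single libraries. Without T5 library 2 it was 732 (452 higher and 280 lower), of which 255 were among the 257. With T5 library 1 left out it was 61, with T5 library 3 left out 91, and it was 44, 113 and 31 without LP library 1, 2 and 3. A total of 22 genes were called in the fit of all 6 libraries and with each library left out, 17 higher and 5 lower in T5. The bar plot of called genes shows these counts.

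**Figure D1:**
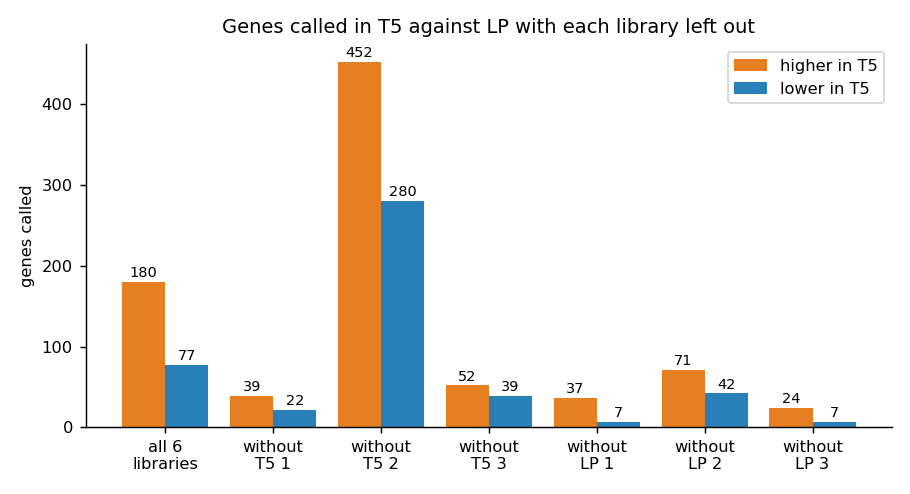
Number of genes called in T5 against LP (y axis) with all 6 libraries and with each T5 or LP library left out (x axis), orange bars for genes higher in T5 and blue bars for genes lower in T5. The count was 732 in all without T5 library 2 and between 31 and 113 without any other library, against 257 with all 6.

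The 12 largest rises among genes with a name had Log2FC between 3.36 and 5.37. SPR, the sex peptide receptor, had 138, 64.2 and 70.1 in T5, against 1.74, 0 and 2.33 in LP (adjusted p = 0.00995), close to 0 in every LP library. Hsp70Ba, a heat-inducible chaperone of the Hsp70 family, had 8847, 5744 and 4224 in T5, against 201, 70.0 and 232 in LP, a Log2FC of 5.32 ± 0.47 (adjusted p = 0.00716). Each T5 library was far above each LP library, but the copies of Hsp70 are nearly identical, so reads may have been split between them. Syt4, a synaptotagmin that binds calcium at vesicles, had 90.2, 57.5 and 20.7 in T5, against 0, 0 and 0.855 in LP (adjusted p = 0.0144). nw (narrow), a secreted C-type lectin, had 422, 108 and 255 in T5, against 19.9, 3.53 and 8.83 in LP (Log2FC 4.54, adjusted p = 0.0231). TotM (Turandot M), a secreted protein induced by stress, had 140.4, 13.4 and 62.2 in T5, against 2.56, 0 and 2.31 in LP (adjusted p = 0.0478). In nw and TotM the second T5 library was the lowest of the 3 and still above all LP libraries. The ionotropic receptor gene Ir68a had 443, 297 and 1218 in T5, against 27.7, 25.6 and 26.5 in LP (Log2FC 4.30, adjusted p = 0.00995), with LP libraries close together and a wide spread in T5. daw (dawdle), a ligand of the activin family, had 2247, 1236 and 2750.0 in T5, against 192, 129 and 93.2 in LP, a Log2FC of 3.89 ± 0.35 (adjusted p = 0.00716). The odorant-binding protein gene Obp49a had 92.3, 19.8 and 129 in T5, against 2.81, 6.49 and 3.36 in LP (Log2FC 3.66, adjusted p = 0.0419). In daw and Obp49a, T5 library 2 was the lowest of its group and still above each LP library. GstD5, a glutathione S-transferase, had 184, 94.1 and 142 in T5, against 7.51, 13.02 and 11.8 in LP, a Log2FC of 3.56 ± 0.33 (adjusted p = 0.00716). Drat, a gene first described for a role in cell death, had 15838, 4052 and 15605 in T5, against 1996, 579.9 and 565 in LP (Log2FC 3.53, adjusted p = 0.0408). Pepck1, a phosphoenolpyruvate carboxykinase of gluconeogenesis, had 7045, 1458 and 6305 in T5, against 727, 362 and 171 in LP (Log2FC 3.49, adjusted p = 0.0474), and the row of the adjoining CG45087 held the same values. Osi24, a member of the Osiris family, had 208, 131 and 79.5 in T5, against 17.2, 8.90 and 10.3 in LP (Log2FC 3.36, adjusted p = 0.0128). In each of these genes the lowest T5 library was above the highest LP library, which was a condition of being listed. The Log2FC of SPR (5.37), Syt4 (5.31) and TotM (4.47) depends on the added 1, since LP was at or near 0.

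SPR, Hsp70Ba, daw and GstD5 stayed called whichever library was left out. Osi24 and Ir68a lost the call without LP library 3 (adjusted p = 0.0608 and 0.0591). Syt4 lost it without T5 library 1, LP library 1 or LP library 3 (up to adjusted p = 0.0751), and nw without T5 library 1 or 3 or LP library 2 or 3 (up to 0.0938). TotM, Obp49a, Drat and Pepck1 stayed called when T5 library 2 was left out and lost the call with each of the other 5 left out (adjusted p up to 0.159, 0.149, 0.137 and 0.151). Among symbols without a name, lncRNA:CR44717 had 104, 87.2 and 319 in T5, against 0, 0 and 0.855 in LP and CG14147 had 87.9, 58.4 and 44.0 in T5, against 0.935, 0 and 0.841 in LP. CG43666 had 72.8, 125 and 77.9 in T5 and was listed at 0 in the 3 LP libraries. These 3 genes stayed called with each library left out (adjusted p up to 0.0293, 0.0398 and 0.0293).

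**Figure D2:**
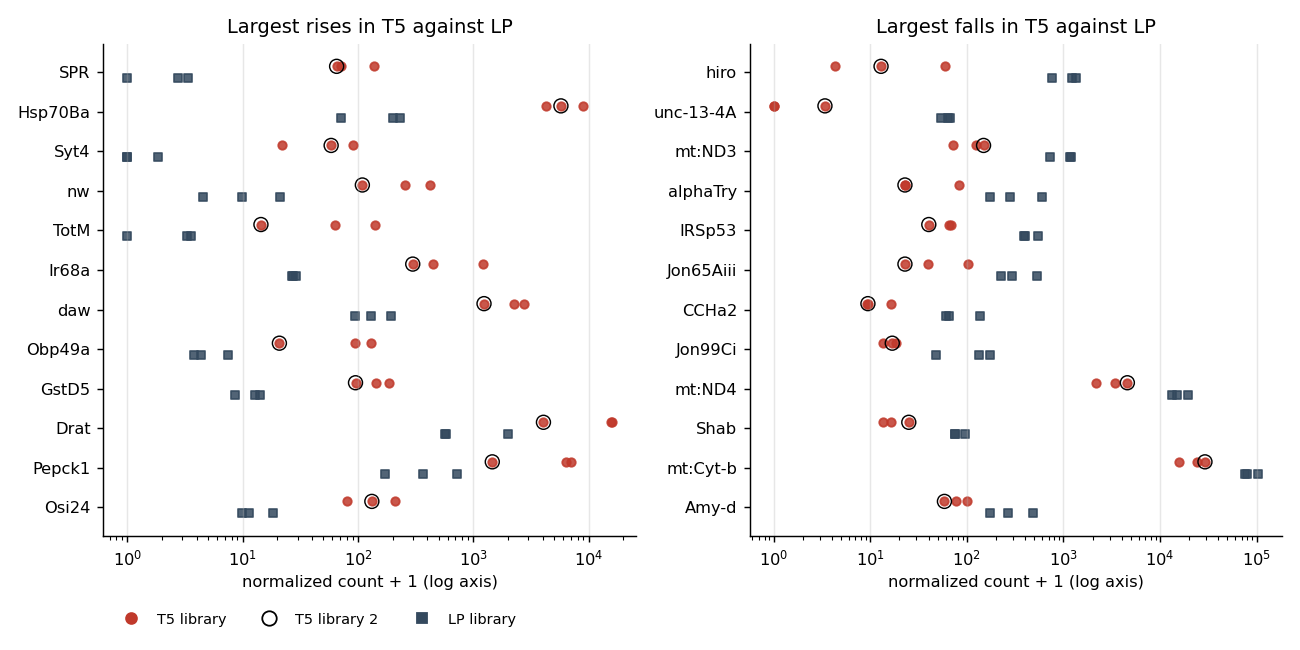
Normalized count + 1 (x axis, log scale) of the 12 named genes with the largest rises (left) and the 12 with the largest falls (right) in T5 against LP, with each T5 library as a red circle above each LP library as a dark square, T5 library 2 ringed. Genes shown were chosen among those whose T5 and LP libraries did not overlap. For Drat T5 library 2 was at 4052, beside 15838 and 15605 in the other T5 libraries.

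The 12 largest falls among genes with a name had Log2FC between -1.88 and -6.18. hiro had 57.9, 11.9 and 3.31 in T5, against 757, 1345 and 1219.8 in LP, a Log2FC of -6.18 ± 0.85 (adjusted p = 0.0197). unc-13-4A, of a family that primes vesicles for release, had 0, 2.38 and 0 in T5, against 53.1, 65.1 and 62.1 in LP (adjusted p = 0.00995). IRSp53, an I-BAR protein that bends the plasma membrane, had 67.6, 39.3 and 63.7 in T5, against 396, 546 and 385 in LP, a Log2FC of -2.96 ± 0.24 (adjusted p = 0.00634). All 3 genes were low in each T5 library, with no overlap with LP. Shab, a voltage-gated potassium channel, had 12.5, 23.98 and 15.3 in T5, against 73.6, 95.4 and 73.9 in LP (Log2FC -2.20, adjusted p = 0.0172), and CCHa2, a peptide hormone, had 8.32, 8.42 and 15.3 in T5, against 135, 64.4 and 59.0 in LP (Log2FC -2.85, adjusted p = 0.0209). In both genes each T5 library lay below each LP library. Digestive enzymes of the gut had LP spread widely and T5 low. alphaTry, a trypsin, had 22.0, 21.8 and 81.3 in T5, against 604, 279 and 170.3 in LP (Log2FC -3.13, adjusted p = 0.045). Jon65Aiii had 38.6, 21.8 and 102 in T5, against 528, 290.1 and 225 in LP (adjusted p = 0.0445) and Jon99Ci had 17.6, 15.8 and 12.4 in T5, against 170.3, 132 and 46.4 in LP (Log2FC -2.67, adjusted p = 0.0351). The amylase gene Amy-d had 99.0, 57.5 and 75.4 in T5, against 478, 265 and 173 in LP (Log2FC -1.88, adjusted p = 0.0455). In bulk RNA, fewer cells of a type and less RNA per cell cannot be told apart. Mitochondrial genes made up the rest of the 12. mt:ND3, a subunit of complex I, had 70.1, 148 and 124 in T5, against 1202, 1169 and 732 in LP, a Log2FC of -3.20 ± 0.31 (adjusted p = 0.00782). mt:ND4 and mt:Cyt-b had Log2FC of -2.28 and -1.94. Among symbols without a name, CG13616 had 14.9, 12.9 and 9.13 in T5, against 177, 80.9 and 331 in LP and CG1909 had 14.03, 26.8 and 10.8 in T5, against 86.2, 57.8 and 95.5 in LP. CG17816 had 556, 440.3 and 468 in T5, against 1645, 1454 and 1349.6 in LP (Log2FC -1.60, adjusted p = 0.00596).

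IRSp53, mt:ND3 and CG17816 stayed called with each library left out (adjusted p up to 0.0293, 0.0385 and 0.0293). unc-13-4A, mt:ND4 and mt:Cyt-b lost the call without LP library 1 or LP library 3 (up to 0.0602, 0.0591 and 0.0602), and hiro without LP library 1, 2 or 3 (up to 0.0878). CG13616 lost it without T5 library 1 or 3 or LP library 1 or 3 (up to 0.0779), and Jon99Ci without T5 library 1 or 3 or LP library 1 or 2 (up to 0.11). alphaTry, Jon65Aiii and CCHa2 lost it without T5 library 1 and without each LP library (up to 0.149, 0.148 and 0.0751). Shab, Amy-d and CG1909 stayed called only when the library left out was T5 library 2 (adjusted p up to 0.0728, 0.111 and 0.119).

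The smallest adjusted p belonged to Kr-h1 and CG43666 (both 0.00412). Kr-h1 is a zinc finger factor and a main target of juvenile hormone, and it had 1642, 1544 and 1589.7 in T5, against 3316, 3098 and 3185 in LP, a Log2FC of -1.01 ± 0.06. The libraries lay close together within each group. Gk2, a glycerol kinase, had 520.2, 499 and 588 in T5, against 1221, 1173 and 1149.8 in LP (Log2FC -1.14 ± 0.09, adjusted p = 0.00596). CHKov1, of a family of kinase-like genes, had 371, 534 and 401 in T5, against 61.8, 33.1 and 50.2 in LP (Log2FC 3.17 ± 0.25, adjusted p = 0.00596). Gpo1, a glycerol-3-phosphate dehydrogenase of mitochondria that takes the product of glycerol kinase, had 2157, 1790.0 and 2003 in T5, against 965, 1069 and 914 in LP (Log2FC 1.01 ± 0.10). Cht6, a chitinase family gene, had 378, 436 and 348 in T5, against 53.4, 101 and 81.9 in LP (Log2FC 2.33 ± 0.23). MFS14, of the major facilitator family of transporters, had 2413, 2052 and 2229 in T5, against 963, 1162 and 916 in LP (Log2FC 1.14 ± 0.11). link had 122, 88.2 and 117 in T5, against 27.5, 20.9 and 29.8 in LP (Log2FC 2.02 ± 0.22) and CG16959 144, 118 and 148 in T5, against 27.5, 26.4 and 35.2 in LP (Log2FC 2.17 ± 0.19). CG15772 had 187, 95.8 and 118 in T5, against 18.3, 18.6 and 24.5 in LP (Log2FC 2.60 ± 0.28), CG17841 1383, 1283 and 1369 in T5, against 790.5, 837 and 814 in LP (Log2FC 0.72 ± 0.07), and lncRNA:dntRL 418, 453 and 490.3 in T5, against 138, 103 and 94.8 in LP (Log2FC 2.02 ± 0.16). Each of these genes was called with every library left out in turn. Except CG43666, they were chosen for naming after their values were seen.

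In the insulin, PI3K and TOR list, 1 of 31 tested genes was called higher in T5 and 3 were called lower (1.99% and 0.851% of all tested genes). The median Log2FC of the list was -0.055 beside 0.00063 over all tested genes. The 3 that fell were a receptor, a kinase and a transcription factor. InR, the insulin receptor, had 947, 962 and 1030.0 in T5, against 1959.9, 1417 and 1865 in LP (Log2FC -0.82 ± 0.13, adjusted p = 0.0256). Pdk1, which acts on AKT at the membrane as described above, had 2036, 2099 and 2226 in T5, against 3956, 5148 and 3795 in LP (Log2FC -1.01 ± 0.12, adjusted p = 0.0128). Myc, a transcription factor of ribosome production and growth, had 8257, 9290.2 and 8205 in T5, against 20193, 12788 and 18118 in LP (Log2FC -0.96 ± 0.17, adjusted p = 0.0334). Each of the 3 was at a similar level in the 3 T5 libraries. ImpL2, a secreted protein that binds insulin-like peptides and limits their action, had 23190.5, 16933 and 23812 in T5, against 9965, 11942 and 9921 in LP (Log2FC 1.00 ± 0.15, adjusted p = 0.0245). The TOR inhibitors scyl and chrb had Log2FC of 1.24 and 1.05 that did not pass (adjusted p = 0.0678 and 0.0774). The kinase gene mTor (0.05), its target S6k (-0.10) and foxo (-0.33) did not pass either. Pdk1 lost its call without T5 library 1 (adjusted p = 0.0551), and InR, Myc and ImpL2 without T5 library 1 or 3 or LP library 1 or 3 (adjusted p up to 0.104, 0.122 and 0.103). With T5 library 2 left out, 5 genes of the list were called higher and 3 lower.

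Of 10 tested genes on a list of FOXO targets, 2 were called higher in T5 and 1 lower (1.99% and 0.851% of all tested genes), and 7 did not pass. The median Log2FC was 0.48, and the list gives no direction of control. Those called were daw (3.89) and Pepck1 (3.49), given above, and InR (-0.82), which is also in the insulin list. Thor, the translation repressor 4E-BP, had a Log2FC of 0.53 (adjusted p = 0.5), Ilp6, an insulin-like peptide, 1.70 (0.132), and the lipase gene Lip4 1.08 (0.132). Sod2, a mitochondrial superoxide dismutase, had 2519.8, 2706 and 2702 in T5, against 2165, 2286 and 2213 in LP, with no overlap and a Log2FC of 0.25 (adjusted p = 0.0792). Leaving out T5 library 2 gave 5 calls higher and 1 lower, and without LP library 1 or 3 or T5 library 1 or 3 only daw was called. In the activin and BMP list daw was the 1 gene called of 13, with a median of the list of -0.14 and no other call. put, a shared type II receptor, had a Log2FC of -0.23 (adjusted p = 0.127) and Dad, a BMP target that feeds back on the pathway, -0.44 (0.0676).

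Among enzymes of glutamate metabolism and gluconeogenesis, only some rose. Of 19 tested genes of glutamate metabolism, gluconeogenesis and the tricarboxylic acid cycle, 3 were called higher in T5 and 0 lower (1.99% and 0.851% of all tested genes). The median Log2FC of the list was 0.036. Gdh, glutamate dehydrogenase, had 24232, 17959 and 24337 in T5, against 10229, 8418 and 10622 in LP (Log2FC 1.18 ± 0.15, adjusted p = 0.0153). Pepck2, a second phosphoenolpyruvate carboxykinase, had 394, 275 and 357 in T5, against 55.7, 97.8 and 68.8 in LP (Log2FC 2.22 ± 0.23, adjusted p = 0.00995). Both had T5 libraries well above LP, like Pepck1. Got2, a mitochondrial aspartate aminotransferase, had 7046, 5993 and 7719 in T5, against 4799.6, 5203 and 4799.7 in LP, with no overlap, and a Log2FC of 0.48 that did not pass (adjusted p = 0.0542). Bcat, a branched-chain amino acid transaminase, went the other way with 2983, 3622 and 2321 in T5, against 6349, 10231 and 6497 in LP (Log2FC -1.36 ± 0.23, adjusted p = 0.0286), a gene chosen after its values were seen. Pepck2 lost its call without LP library 3 (adjusted p = 0.0591), Gdh without T5 library 1 or 3 or LP library 1 or 3 (up to 0.0625), and Bcat with any library but T5 library 2 left out (up to 0.104). Leaving out T5 library 2 gave 4 calls higher in the list.

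In the glycolysis list, 0 of 19 tested genes were called by limma, and the median Log2FC was 0.0017. An unadjusted p under 0.05 held for 7, beside 2178 of all 9043 tested genes. Ldh, lactate dehydrogenase, had 139.8, 48.5 and 111 in T5, against 37.6, 25.2 and 39.0 in LP, with no overlap and a Log2FC of 1.43 (adjusted p = 0.0973). Lipid genes gave 0 calls of 19, 7 with an unadjusted p under 0.05, at a median of 0.18. Without T5 library 2, 6 were called higher and 0 lower, and 0 were called with any other library left out. Lsd-1, a perilipin that coats lipid droplets, had 3113, 704 and 1708 in T5, against 729.9, 271 and 167 in LP, with overlap of the groups (Log2FC 2.27, adjusted p = 0.105). FASN1, fatty acid synthase, had 10754, 5747 and 10719.5 in T5, against 6385, 4449 and 3640.0 in LP (Log2FC 0.89, adjusted p = 0.13). In both genes T5 library 2 lay lowest of the 3 T5 libraries and within the LP range. whd, the carnitine palmitoyltransferase that brings fatty acids into mitochondria, had 1445, 1541 and 1413 in T5, against 1930.5, 1954 and 2066 in LP and passed the adjusted p (0.0256) at a change under 1.5-fold (Log2FC -0.44). The ferritin subunits had the largest changes of the iron genes. Fer1HCH had 48828, 18798 and 26703 in T5, against 11108, 8676 and 11300.0 in LP (Log2FC 1.497, adjusted p = 0.0549) and Fer2LCH 45707, 17057 and 24989 in T5, against 11921, 8886 and 10916 in LP (Log2FC 1.36, adjusted p = 0.0704). Neither passed with all 6 libraries, although their groups did not overlap. Of 6 tested iron genes 0 were called, 3 having an unadjusted p under 0.05. Without T5 library 2, 3 were called higher, and 0 were called with any other library left out.

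Of 22 tested genes of glutathione S-transferases and antioxidant defense, 4 were called higher in T5 and 0 lower (1.99% and 0.851% of all tested genes). The median Log2FC of the list was 0.27. All 4 called genes were transferases. Beside GstD5, GstD2 had 4824, 1388 and 5857 in T5, against 538, 167 and 547 in LP (Log2FC 3.21 ± 0.65, adjusted p = 0.0466), GstD10 144, 109 and 82.7 in T5, against 48.0, 29.4 and 46.5 in LP (Log2FC 1.41 ± 0.28) and GstE1 2752, 1974 and 1929 in T5, against 1068, 923 and 1432 in LP (Log2FC 0.96 ± 0.20). T5 library 2 was the lowest of the T5 libraries in GstD2. The factor cnc, which activates antioxidant genes, had a Log2FC of -0.16 (adjusted p = 0.293), its inhibitor Keap1 0.02 (0.935) and catalase, Cat, -0.01 (0.986). The peroxiredoxin gene Prx2 passed the adjusted p (0.0474) at a Log2FC of 0.45, under 1.5-fold. GstD2, GstD10 and GstE1 stayed called only when the library left out was T5 library 2 (adjusted p up to 0.151, 0.149 and 0.145). The list had 6 calls higher without T5 library 2 and 1, GstD5, with any other library left out.

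Among cell death genes, 2 of 10 were called higher in T5 and 0 lower (1.99% and 0.851% of all tested genes), with a median Log2FC of 0.39. rpr (reaper), which frees caspases from their inhibitor Diap1, had 247, 78.2 and 167 in T5, against 33.9, 19.6 and 30.4 in LP (Log2FC 2.40 ± 0.43, adjusted p = 0.0354), and Drat was the other. Xrp1, a transcription factor known for its role in the loss of cells with too few ribosomal proteins, had 15662, 10947 and 12289 in T5, against 6554, 5235 and 6305 in LP (Log2FC 1.09 ± 0.15, adjusted p = 0.0195), a gene taken up after its values were seen, which lost the call without T5 library 3 or any LP library (up to 0.0766). Drice, an effector caspase, had 2581, 2192 and 2576 in T5, against 1803, 1846 and 1817 in LP and passed the adjusted p (0.0423) with a change under 1.5-fold (Log2FC 0.42). hid had a Log2FC of 0.49 (adjusted p = 0.41) and Diap1 0.25 (0.267). Both calls held only when the library left out was T5 library 2 (rpr, adjusted p up to 0.113). In the heat shock list, Hsp70Ba was the 1 gene called of 16. Hsp70Aa had 242, 167 and 582 in T5, against 49.7, 0 and 35.9 in LP (Log2FC 4.55, adjusted p = 0.121), while Hsp70Bbb (-0.41), Hsp70Bc (-0.53) and Hsp68 (0.68) did not pass. The called rise was thus in 1 copy, and the sum over the copies was not tested. AsnS, asparagine synthetase and a target of ATF4, had 6329, 5746 and 4903 in T5, against 1099.7, 372 and 1624 in LP (Log2FC 2.69 ± 0.49, adjusted p = 0.0365), the 1 call of 9 genes of the unfolded protein response and ATF4. It lost the call without T5 library 1 or 3 or LP library 1 or 3 (up to 0.122). Xbp1 had a Log2FC of 0.24 (adjusted p = 0.123) and Atf6 -0.37 (0.0533). In the JNK list 0 of 12 were called, 6 with an unadjusted p under 0.05 (beside 2178 of all 9043 tested genes). Its target Mmp1, a matrix protease, had 452, 303 and 263 in T5, against 139, 192 and 152 in LP (Log2FC 1.05, adjusted p = 0.0532), and Ilp8, a relaxin-like peptide, 695, 801 and 454 in T5, against 2186, 918 and 1663 in LP (Log2FC -1.24, adjusted p = 0.0891).

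Genes on the mitochondrial genome fell in part. Of 11 tested protein-coding ones, 0 were called higher and 7 lower (1.99% and 0.851% of all tested genes), with a median Log2FC of -1.13. The 7 were mt:ND3 (-3.20), mt:ND4 (-2.28), mt:Cyt-b (-1.94), mt:ND1 (-1.84), mt:CoI (-1.33), mt:ATPase6 (-1.12) and mt:CoIII (-1.12), subunits of complexes I, III, IV and ATP synthase. mt:ND1 had 4703, 8728 and 6550.1 in T5, against 23895, 22274 and 23208 in LP (adjusted p = 0.00996). Others on the same genome differed, with mt:ND2 at 0.28 (adjusted p = 0.665) and mt:ND6 at 1.44 (0.195). All mitochondrial genes took 3.71%, 6.26% and 4.47% of the library total in T5, against 9.42%, 7.49% and 10.4% in LP. Within WT the share was 4.20%, 22.1% and 6.79%. T5 and LP did not overlap, and the two-sided exact permutation test gave p = 0.1, the smallest that 3 against 3 libraries allow. With T5 library 2 left out, 9 were called lower, and between 1 and 4 were called lower without another single library, the fewest without LP library 1 or LP library 3. The part of RNA handling in these shares was not tested.

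Genes of ribosomal proteins and of ribosome production were called in 1 case. Of 83 tested ribosomal protein genes, 0 were called by limma, 9 had an unadjusted p under 0.05 (beside 2178 of all 9043 tested genes), in 14 the T5 libraries lay below all LP libraries (against 14.9% of all tested genes), and 77 had a negative Log2FC, at a median of -0.18. The median was -0.09 to -0.28 with 1 library left out. Among 18 biogenesis genes, nclb, a nucleolar protein, was the 1 called, and it was higher, with 2510.4, 2979 and 2528 in T5, against 1581, 1716 and 1633 in LP (Log2FC 0.70 ± 0.09, adjusted p = 0.0144). It lost the call without LP library 1 or LP library 3 (adjusted p up to 0.0678). The median of the list was -0.20. Tif-IA, the initiation factor of RNA polymerase I, had 2034, 2271 and 2382 in T5, against 2935, 3075 and 3035 in LP, passing the adjusted p (0.0347) at a Log2FC of -0.44, under 1.5-fold, as did the nucleolar GTPase gene Ns2 (Log2FC -0.38, adjusted p = 0.0478). In 10 of the 18 the T5 libraries lay below all LP libraries. The proteasome list had 0 calls of 33, 10 having an unadjusted p under 0.05, and a median of 0.17, and in 11 of the 33 the T5 libraries lay above LP, against 14.8% of all tested genes. Rpt2, an ATPase of its cap, had 6196, 6360.1 and 6605 in T5, against 4417, 5464 and 5151 in LP (Log2FC 0.36, adjusted p = 0.0808). tRNA synthetases had 0 calls of 18 and 1 gene with an unadjusted p under 0.05.

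**Figure D3:**
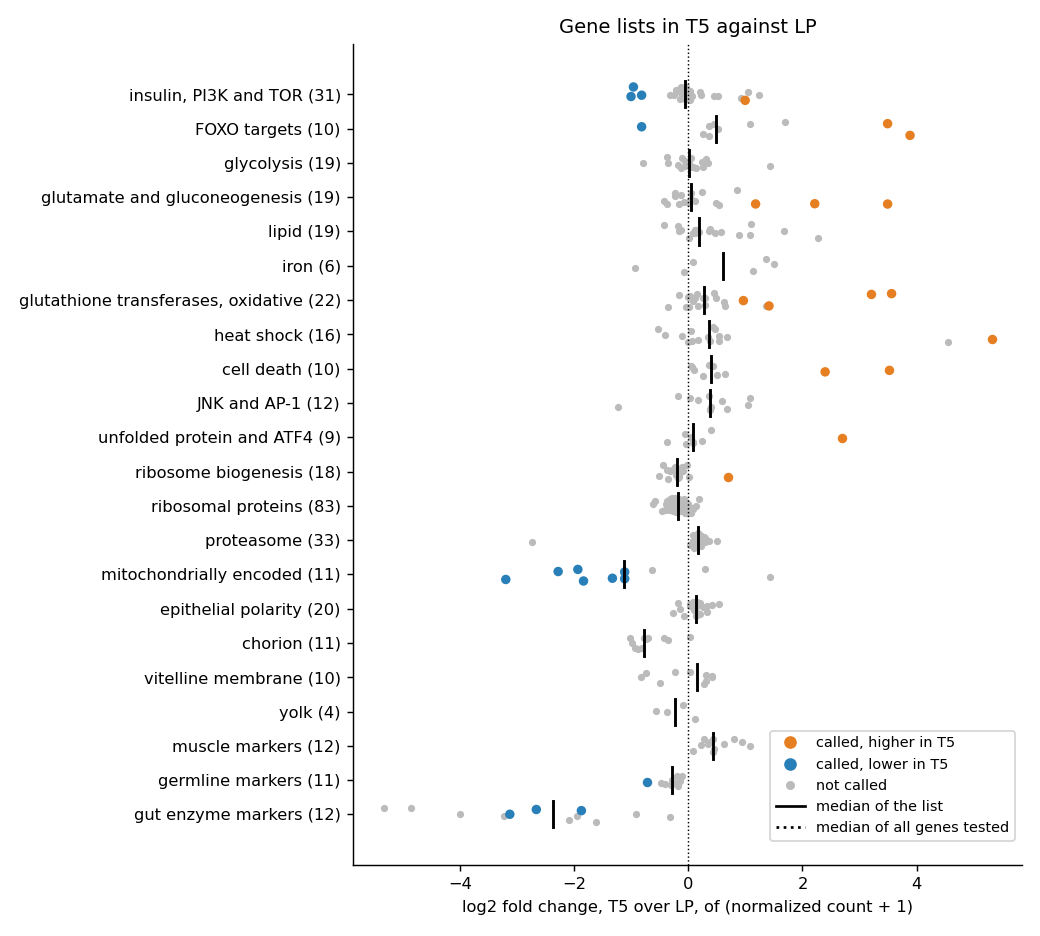
Log2FC of T5 over LP (x axis) of each tested gene in 22 gene lists (rows, number of tested genes in brackets), with genes called higher in orange, called lower in blue and others in gray, the median of each list as a bar and the median of all tested genes as a dotted line. The mitochondrially encoded genes, with 7 of 11 called lower and a median of -1.13, and the gut enzyme markers, with 3 of 12 called lower and a median of -2.38, have the lowest medians of the lists shown.

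sqh, the regulatory light chain of nonmuscle myosin II, was called higher in T5, with 6612, 5215 and 6323 in T5, against 3743, 4019 and 4267 in LP (Log2FC 0.59 ± 0.11, adjusted p = 0.0362). It kept its call only when the library left out was T5 library 2 (up to 0.122). Moe (moesin), which ties actin to the membrane, had 17663, 18079 and 16615 in T5, against 12184, 13632 and 12147 in LP and passed the adjusted p (0.0356) at a Log2FC of 0.46. Arpc1, of the actin-nucleating Arp2/3 complex, had 3993, 3593 and 3931 in T5, against 2891, 3259 and 2726 in LP (Log2FC 0.38, adjusted p = 0.0637). Muscle marker sums, given below, were also higher in T5, and the part of muscle cells in these genes was not tested. Of 20 adhesion and polarity genes 0 were called, at a median of 0.13. An unadjusted p under 0.05 held for 5, beside 2178 of all 9043 tested genes. Fas3, an adhesion protein of the follicle stem cell lineage and polar cells, had 5699, 4365 and 3545 in T5, against 3207, 3139 and 2854 in LP (Log2FC 0.54, adjusted p = 0.112), and shg, E-cadherin, 12993, 11684 and 10122 in T5, against 9243, 9576 and 8797 in LP (Log2FC 0.33, adjusted p = 0.123). Notch and endocycle genes gave 0 calls of 13, 3 with an unadjusted p under 0.05. fzr, which brings about the switch to endocycles, had 1411, 1648 and 1496 in T5, against 2283, 2225 and 2169 in LP, passing the adjusted p (0.0197) at a Log2FC of -0.55, and peb (hindsight), induced by Notch at that switch, 7558, 6703 and 8568 in T5, against 5632, 5445 and 4453 in LP (Log2FC 0.56, adjusted p = 0.0592).

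Of 18 tested genes of JAK-STAT, EGFR and PVR signaling 0 were called by limma, at a median of -0.035. An unadjusted p under 0.05 held for 5, beside 2178 of all 9043 tested genes. Inhibitors that EGFR signaling induces did not pass. sty (sprouty), an inhibitor of the pathway, had 1908, 2382 and 1687 in T5, against 3323, 2979 and 2779.7 in LP, with no overlap (Log2FC -0.61, adjusted p = 0.0573). aos (argos), a secreted inhibitor, had 132, 211 and 104 in T5, against 260.4, 308 and 253 in LP (Log2FC -0.93, adjusted p = 0.0879). dome, the JAK-STAT receptor, had 3999, 4107 and 3719 in T5, against 3419, 3254 and 3169.9 in LP, with T5 above LP in each library (Log2FC 0.26, adjusted p = 0.0827). Leaving out T5 library 2 gave 0 calls higher and 3 lower in the list, and leaving out any other library gave 0 calls. Of 15 autophagy and lysosome genes 0 were called, 4 having an unadjusted p under 0.05. Mitf, which activates lysosome genes, had 2560.4, 2375 and 2687 in T5, against 3454, 3399.6 and 3177 in LP and passed the adjusted p (0.0397) at a Log2FC of -0.40, under 1.5-fold. CtsL1, a lysosomal protease, had 41236, 20355 and 37378 in T5, against 22400.5, 15081 and 17678 in LP, with T5 library 2 inside the LP range (Log2FC 0.80, adjusted p = 0.147). Of 9 immune genes 0 were called, 2 having an unadjusted p under 0.05. Without T5 library 2 the calls higher and lower were 3 and 0 among the autophagy and lysosome genes, 1 and 0 among the immune genes, 1 and 1 in the Notch list and 1 and 1 in the JNK list. They were 1 and 0 in the glycolysis list and 0 and 2 among ribosomal proteins. With any other library left out, these lists had 0 calls. PGRP-LB, an enzyme that degrades peptidoglycan, had 579, 247 and 787 in T5, against 234, 194 and 222 in LP (Log2FC 1.16, adjusted p = 0.134).

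Eggshell genes were not called with all libraries. Of 11 chorion genes 0 were called by limma, and 3 had an unadjusted p under 0.05 (beside 2178 of all 9043 tested genes). The median Log2FC was -0.78, and it was negative in 10 genes. Summed chorion counts were 0.344, 0.689 and 0.398 M in T5, against 0.470, 0.626 and 0.581 M in LP. Libraries 1 and 3 of T5 were below each LP library and T5 library 2 above all of them. Cp18, a main structural protein, had 7227, 16265 and 5874 in T5, against 22289.7, 15839 and 13812 in LP (Log2FC -0.94, adjusted p = 0.187). When T5 library 2 was left out, 10 of the 11 were called lower, and 0 were called with any other library left out. Chorion genes come on in the last stages of egg chambers, and the part of the mix of stages in these values was not tested. Vitelline membrane genes had 0 calls of 10, 2 with an unadjusted p under 0.05, and a median of 0.15. With T5 library 2 left out, 0 vitelline membrane genes were called higher and 1 lower, and 0 were called with any other library left out. Yolk genes had 0 calls of 4, 1 with an unadjusted p under 0.05. Yp3 had 120897, 144195 and 134069 in T5, against 157192, 204658 and 240525 in LP, with no overlap (Log2FC -0.58, adjusted p = 0.144), a difference that turned to 0.079 under quantile normalization, while Yp1 (-0.10) and Yp2 (0.12) changed sign when 1 library was left out. Among late follicle and ovulation genes, 0 of 11 were called and 3 had an unadjusted p under 0.05. The octopamine receptor genes Octbeta2R and Oamb, which act in ovulation, had 148, 214 and 93.8 in T5, against 613, 289.8 and 340.0 in LP (Log2FC -1.44, adjusted p = 0.077) and 427, 559 and 261 in T5, against 939, 608 and 825 in LP (Log2FC -0.97, adjusted p = 0.106). Leaving out T5 library 2 gave 4 calls lower, and leaving out any other library gave 0 calls. For ecdysone response 0 of 13 were called and for ecdysone synthesis and turnover 0 of 7, with 4 and 2 at an unadjusted p under 0.05. With T5 library 2 left out, 2 response genes were called higher and 1 lower, and 1 gene of synthesis and turnover was called higher. Both lists had 0 calls with any other library left out. Cyp18a1, which inactivates ecdysone, had 3746, 1869 and 2262 in T5, against 1534, 1054 and 1235 in LP, with no overlap (Log2FC 1.00, adjusted p = 0.0815).

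Juvenile hormone genes were taken up after the rank of Kr-h1 was seen. Of 9 tested, 2 were called higher and 1 lower (1.99% and 0.851% of all tested genes). Jhe, the esterase that degrades the hormone, had 121, 97.7 and 126 in T5, against 20.7, 14.7 and 45.5 in LP (Log2FC 2.20 ± 0.39, adjusted p = 0.0354), and JhI-26, named for its induction by the hormone, 242, 161 and 169 in T5, against 80.8, 78.3 and 87.6 in LP (Log2FC 1.18 ± 0.18, adjusted p = 0.0256). gce, a receptor of the hormone, had 1825, 1772 and 1482 in T5, against 2405, 2232 and 2454 in LP, which passed the adjusted p (0.0448) at a Log2FC of -0.49, under 1.5-fold. Its paralog Met (-0.19, adjusted p = 0.381) and the epoxide hydrolases Jheh1 (-0.03, 0.892), Jheh2 (-0.14, 0.459) and Jheh3 (-0.41, 0.35) did not pass. Kr-h1 held under each library left out, Jhe lost its call without T5 library 1 or 3 or LP library 1 or 2 (up to 0.122), and JhI-26 with any library but T5 library 2 left out (up to 0.0956).

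Markers of other cells were followed because no sort was described. Of 12 tested midgut enzyme markers 0 were called higher and 3 lower in T5 (1.99% and 0.851% of all tested genes). The number lower was 4 without T5 library 2 and 0 to 2 with any other library left out. Log2FC was negative in all 12 markers, at a median of -2.38. Their summed normalized counts were 1748, 601 and 959 in T5, against 7000.4, 3908 and 2884 in LP. Of the 14 markers 1 to 2 were at 0 in a T5 library and 0 to 3 in an LP library. In the other lines the sum ranged between 3.44 and 11345, and within WT it was 6.39, 11345 and 8906. alphaTry, Jon99Ci and Amy-d, among the largest falls, are in this list and Jon65Aiii is of the same family, and the part of gut cells in their falls was not tested. Muscle markers, from the sheath and oviduct, had 0 calls of 12, 5 having an unadjusted p under 0.05, and all 12 had a positive Log2FC at a median of 0.43. Their sums were 23004, 23968 and 20768 in T5, against 17322, 19701 and 17087 in LP, with no marker at 0 in any of these libraries and no overlap. Of 11 germline and oocyte markers all had a negative Log2FC, at a median of -0.28, and aub, an Argonaute protein that silences transposons, was the 1 called, with 937, 984 and 1403 in T5, against 1813, 1768 and 1831 in LP (Log2FC -0.73 ± 0.15, adjusted p = 0.048). aub lost the call without T5 library 1 and without each LP library (up to 0.153). The germline sums were 21954, 15024 and 30591 in T5, against 31823, 25148 and 28211 in LP, with overlap, none of the markers at 0 and T5 library 2 lowest. Follicle cell markers had 0 calls of 8, 5 with an unadjusted p under 0.05. Log2FC was positive in 6 and negative in 2, at a median of 0.30. T5 and LP did not overlap in tj (-0.54), Fas3 (0.54), cas (0.71) and Past1 (0.58), so the sums combine opposed differences. Without T5 library 2, 2 of the follicle cell markers were called higher and 1 lower, and at most 1 was called with any other library left out. All 8 were above 0 in each library, and their sums were 47577, 43565 and 41224 in T5, against 41774, 45232 and 38807 in LP. Each library thus held the markers of the labelled follicle cell origin, beside germline and muscle markers at lower sums. Hemocyte sums were 7994, 4833 and 5565 in T5, against 5239, 4323 and 3789.6 in LP, with 1 of 7 markers at 0 in each T5 library and 0 to 1 in an LP library. Fat body sums were 116, 135 and 76.6 in T5, against 228, 184 and 404 in LP, and neuron sums 727, 659 and 541 in T5, against 620.1, 543 and 516 in LP. Both spermatheca markers were below the filter.

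**Figure D4:**
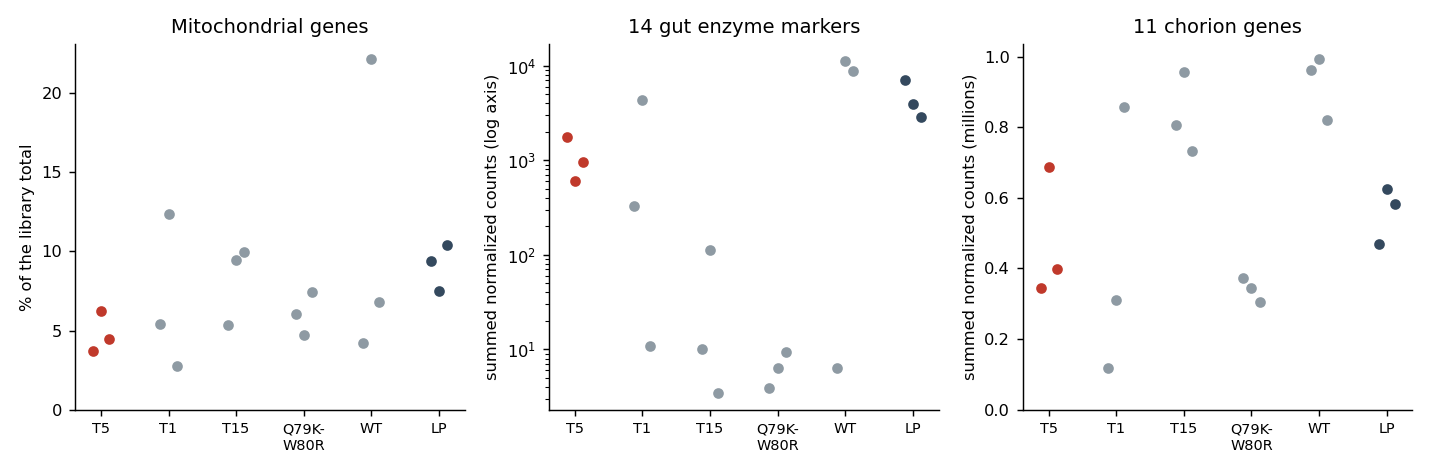
Share of all mitochondrial genes in the library total (left, %), summed normalized counts of 14 gut enzyme markers (middle, log scale) and of 11 chorion genes (right, in M), with 1 point per library and the 6 lines on the x axis, T5 in red, LP in dark blue and the others in gray. T5 libraries lay at 3.71% to 6.26% mitochondrial and LP libraries at 7.49% to 10.4%, while T5 library 2 had the highest chorion sum of both groups, 0.689 M.

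Called genes were spread over the chromosome arms, with 1.83% of tested genes called on 2L, 2.35% on 2R, 3.56% on 3L, 3.16% on 3R, 2.60% on X and 3.95% on 4, where 3 of 76 were called. On Y the 1 tested gene was called, higher in T5. On the mitochondrial genome 7 of 13 tested genes were called, all lower in T5. In the order of tested genes, 47 called genes stood in 20 runs of at least 2 neighbors called in the same direction, 18 of them on nuclear arms. The most marked run was on 3L, where Ir68a stood beside lncRNA:CR44718, lncRNA:CR44715 and lncRNA:CR44717, all 4 higher in T5. lncRNA:CR44718 had 117, 104 and 361 in T5, against 9.46, 9.86 and 4.24 in LP, and lncRNA:CR44715 had 19.3, 13.9 and 78.0 in T5 and was listed at 0 in the 3 LP libraries. In each of the 4 genes library 3 of T5 was the highest. lncRNA:CR44718 lost its call without LP library 1 or LP library 3 (adjusted p up to 0.0602), and lncRNA:CR44715 kept it only when the library left out was T5 library 2 (up to 0.101). A run of 4 on 2L held CG17549, CG17544, CG31798 and Pax, the paxillin gene, all higher, with CG17544 at 832, 667 and 775 in T5, against 356, 318 and 375 in LP and Pax at 3325, 2826 and 3375 in T5, against 1950.4, 2185 and 1967 in LP. On 2R Pepck1 and Pepck2 adjoin each other, and on 3R CHKov1 adjoins CHKov2, which had 224, 191 and 137 in T5, against 80.8, 71.7 and 80.8 in LP (Log2FC 1.204 ± 0.20, adjusted p = 0.0285). hiro adjoins ebd1, which was also lower (Log2FC -0.73, adjusted p = 0.0209). Pax and ebd1 lost the call without T5 library 1 or 3 or LP library 1 or 3 (up to 0.0944 and 0.0751), and CHKov2 without T5 library 1 and without each LP library (up to 0.104). Overlapping or near-identical genes can share reads, as the equal values of Gss1 and Gss2 show, so runs of that kind are not separate measurements.

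To see which differences from LP were also differences from WT AKT1, T5 was tested against WT directly. The T5 libraries are shared by both tests, so their values stand side by side here and no overlap of the gene lists is given. Of 9102 tested genes 65 (0.714%) were called by limma, 40 higher (0.439%) and 25 lower in T5 (0.275%). That count was 506 without T5 library 2, 1 and 2 without T5 library 1 or 3, and 3, 3 and 1 without WT library 1, 2 or 3. With the replicate number as a block it was 185, with more genes lower than higher (82 higher and 103 lower). Rises against WT that passed included daw, with 2247, 1236 and 2750.0 in T5, against 354, 484 and 238 in WT (Log2FC 2.51, adjusted p = 0.0487), and Gdh, with 24232, 17959 and 24337 in T5, against 6696, 6455 and 8526 in WT (Log2FC 1.61, adjusted p = 0.0236). GstD5 (3.07, adjusted p = 0.0323), CHKov1 (2.76, 0.0167), SPR (3.42, 0.0388), Drat (4.95, 0.0236) and Pepck1 (5.32, 0.0487) passed as well. Ir68a (4.77, 0.0236) and EbpIII, an ejaculatory bulb protein gene, (4.49, 0.0487) completed the 5 largest named rises with Pepck1, Drat and SPR. EbpIII had 887, 226 and 577 in T5 and 33.1, 32.2 and 8.05 in WT, against 319, 70.5 and 90.9 in LP, where it did not pass (adjusted p = 0.144). FASN1 passed against WT (Log2FC 1.89, adjusted p = 0.0482) and not against LP. Lower than WT were Pdk1 (-0.89, 0.0482), Kr-h1 (-0.82, 0.0482) and Ctns, the lysosomal cystine exporter, (-1.12, 0.0291), which had 504, 661 and 613 in T5, against 1097, 1149 and 1305 in LP. The largest named falls against WT were mt:ND5 (-2.52, 0.0487), smal (-2.33, 0.0192), Proc-R, the proctolin receptor, (-2.05, 0.0236), REPTOR-BP, which binds the TOR-regulated factor REPTOR, (-1.19, 0.0323) and Ctns. mt:ND5 had 2237, 5095 and 3527 in T5, against 27017, 23437 and 11933 in WT, whose library 2 had the highest mitochondrial share of the series (22.1%). REPTOR-BP had 379, 408 and 383 in T5 and 945, 738 and 1003 in WT, against 475, 253 and 573 in LP, so its T5 libraries lay within the LP range. InR (-0.83, adjusted p = 0.0788) and Myc (-0.73, 0.0586) did not pass against WT.

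For several of the largest differences from LP the test of T5 against WT did not pass, which does not show equal levels. IRSp53 averaged 56.8 ± 15.4 in T5 and 54.0 ± 13.2 in WT, against 442 ± 90.4 in LP (SD, n = 3 each), and the Log2FC of T5 over WT was 0.06 (SE 0.31, adjusted p = 0.938). Hsp70Ba averaged 6272 ± 2356 in T5 and 3523 ± 463 in WT, against 168 ± 86.0 in LP, and T5 over WT was 0.77 (adjusted p = 0.162). Osi24 had 150.4, 145 and 115.2 in WT (T5 over WT -0.07, adjusted p = 0.936), and hiro 3.79, 86.2 and 34.9 in WT (-0.73, 0.803). Syt4 was 184, 179 and 233 in WT, above each T5 library (-2.02, 0.0963). For AsnS the WT libraries had 4278, 6151 and 2434 (T5 over WT 0.49, adjusted p = 0.434), and for nclb 2372, 2783 and 2266 (0.11, 0.641). Log2FC against LP, which shares the LP libraries with T5, was -2.79 in T1, -2.97 in T15, -2.90 in Q79K-W80R and -3.02 in WT for IRSp53, beside -2.96 in T5. For Hsp70Ba it was 4.92 in T1, 5.25 in T15, 4.60 in Q79K-W80R and 4.55 in WT, beside 5.32 in T5. LP was the stock that received the transgenes, while the AKT1 lines carry a UAS insertion at its landing site and were kept as balanced stocks. Effects of the insertion or of line background cannot be told apart from AKT1 expression here.

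Against the other mutant forms, limma called 0 of 9090 tested genes (0%) in T5 against T1, where 323 had an unadjusted p under 0.05. The T1 libraries lay far apart, with chorion sums of 0.118, 0.310 and 0.857 M, and 0 calls do not show equal levels. With T1 library 3 left out, limma called 64, and 2157 had an unadjusted p under 0.05. It called 80 of 8912 genes (0.898%) in T5 against T15, 60 higher (0.673%) and 20 lower (0.224%), a split of 29 higher and 4 lower under quantile normalization and a count that went to 980 without T5 library 2, to 0 and 5 without T5 library 1 or 3, and to 11, 26 and 11 without T15 library 1, 2 and 3. It was 2 (1 higher and 1 lower) with a mean of at least 50. No label or method pairs the libraries by number. With the replicate number as a block, given only as another setting, limma called 817 genes against T15 (575 higher and 242 lower) and 0 against T1. In T5 against Q79K-W80R it called 236 of 9040 genes (2.61%), 86 higher (0.951%) and 150 lower (1.66%), and 395 without T5 library 1 but 58 (29 higher and 29 lower), 41 (24 higher and 17 lower) and 53 (26 higher and 27 lower) without Q79K-W80R library 1, 2 and 3. In the run on 3L, each T5 library of Ir68a and lncRNA:CR44717 was above every library of the other lines. Ir68a averaged 653 ± 495 in T5, 33.5 ± 5.66 in T1, 21.2 ± 5.81 in T15, 54.4 ± 10.9 in Q79K-W80R and 19.1 ± 3.31 in WT, against 26.6 ± 1.09 in LP (SD, n = 3 each). T5 was higher than T15 (Log2FC 4.66, adjusted p = 0.0199) and Q79K-W80R (3.32, 0.0215), and the test against T1 did not pass (3.99, 0.199). Its neighbor lncRNA:CR44717 had 104, 87.2 and 319 in T5, against 5.41, 1.04 and 0 in T1, 2.00, 3.62 and 1.14 in T15, 0.789, 5.52 and 1.72 in Q79K-W80R and 0, 1.23 and 1.34 in WT, and passed in T5 against T15 (adjusted p = 0.0155), Q79K-W80R (0.0106) and WT (0.0236) but not T1 (0.199). Alh, a chromatin-associated factor that was chosen after its values were seen, had 9427, 4603 and 9503 in T5, against 2185, 2357 and 2242 in LP (Log2FC 1.72 ± 0.27, adjusted p = 0.0256). Its mean was 2563 ± 318 in T1, 2369 ± 94.5 in T15, 1819.8 ± 52.2 in Q79K-W80R and 2427 ± 259.8 in WT. T5 passed against T15 (1.65, 0.0491) and Q79K-W80R (2.03, 0.015), and not against WT (1.62, 0.0569) or T1 (1.55, 0.46). Its call against LP held only when the library left out was T5 library 2 (adjusted p up to 0.104), and Ir68a lost its call without LP library 3 (0.0591). CHKov1 was higher in T5 than in Q79K-W80R (1.37, 0.00915) and CG17816 lower (-0.90, 0.0389). For daw, GstD5, Drat, Pepck1 and Gdh no test of T5 against another mutant form passed without a block (adjusted p from 0.0553), which does not show equal levels. A replicate block, which no label gives, called Drat (2.75, 8.2e-05), Pepck1 (3.10, 0.0014) and GstD5 (0.88, 0.0162) higher in T5 than in T15. It did not call daw or Gdh. With daw, for example, the mean was 2078 ± 771 in T5, 646 ± 117 in T1, 1805 ± 86.2 in T15 and 3181 ± 387 in Q79K-W80R.

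**Figure D5:**
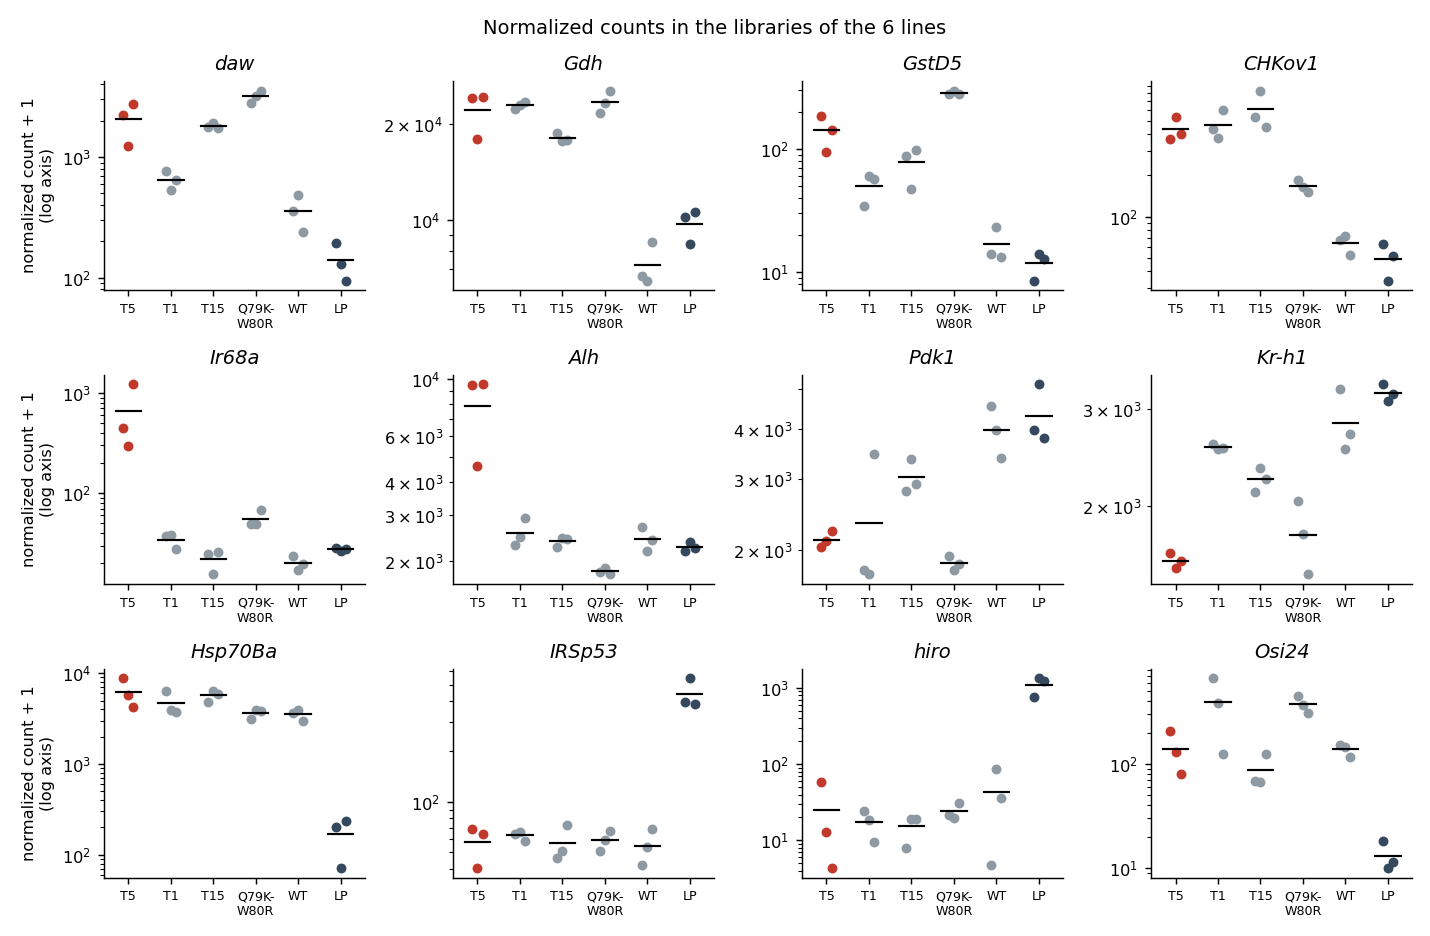
Normalized count + 1 (y axes, log scale) of 12 genes in each library of the 6 lines, T5 in red at the left, LP in dark blue at the right, the other lines in gray, with lines at the group means. Ir68a and Alh were high in T5 alone among these libraries (Ir68a at 297 or more in T5), and IRSp53, hiro and Hsp70Ba had LP alone apart from the AKT1 lines.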

How the data were processed

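RNA from preparations of ovarian follicle cells was sequenced as stranded mRNA libraries. Per the submitters' processing notes, reads were demultiplexed with bcl2fastq 2.18.0.12, aligned with Bowtie and counted with RSEM 1.3.1. The authors then scaled the counts with DESeq2 and deposited 1 signal matrix of normalized counts. Neither Bowtie's version nor a genome build was found in these sources, so no coordinates are printed. A fly annotation gave gene names (17372 of 17493), arms and neighbors. Each sample record covers 3 libraries, whose columns were matched to lines by name. The third Q79K-W80R column went to that line because it carries the name of the other two.

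Every pair of lines was fitted alone, over genes reaching 10 in 3 or more of its 6 libraries, on log2(value + 1) with limma 3.58.1 in R 4.3.3 (eBayes with trend), and p was adjusted by Benjamini-Hochberg over all genes tested. The call followed the limits of the study's methods, adjusted p under 0.05 and 1.5-fold (0.585 in log2). Whole reads could not be recovered from the values, so there was no count test. Also tried were pseudocounts of 0.5 and 5, no filter, a mean over 50, TMM factors, quantile normalization, a fit without trend, all 18 libraries together, a replicate block, and leaving out each library. The replicate numbers in the column names were checked for pairing. Deviations of equal-numbered libraries from their line means correlated over tested genes at 0.116, 0.234 and 0.132 between T5 and T15. Between T5 and T1 they correlated at 0.349, 0.109 and 0.116. Among unequal numbers, T5 library 1 with T15 library 3 correlated at 0.121, and the others between T5 and T15 were negative (-0.203 to -0.0385). T5 library 2 with T1 library 3 correlated at 0.111, and the other unequal numbers between T5 and T1 at -0.274 to 0.017. Neither the labels nor the methods name pairs of libraries, so the replicate block is given only as another setting. Shares per library were set side by side with a two-sided exact permutation test.

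The members and the gene lists were chosen with earlier results of these data known. The genes named are, first, the 12 largest rises and falls that have a gene name and the 3 of each among other symbols, taken from calls without overlap and with a mean of 50 or more in the higher line. The 4 members with the smallest p in each list, the 5 largest rises and falls against WT, Akt, tj and w follow. Other list members were named for their role, and those genes, like the juvenile hormone list, were chosen after their values were seen. Promoter sequences and motifs were not analysed here, and a further gene list is not reported here. Python 3.11.15 and matplotlib 3.10.9 made the plots.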

Additional observations from a re-analysis of the deposited data

How the results depend on the processing

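For T5 against LP, 257 calls became 145 (101 higher and 44 lower) without the trend, 174 with a mean over 50, 243 to 290 under the other fits of all libraries, and 31 to 732 (24 to 452 higher and 7 to 280 lower) with 1 library left out. T5 against WT (65 calls) gave 35 at a pseudocount of 0.5, 98 without a filter, 18 with a mean over 50, 15 without the trend, 464 with all 18 libraries and 1 to 506 with 1 library left out. T5 against T1 (0 calls) gave 6 without the trend, 31 with all 18 libraries and 0 to 64 with 1 left out. T5 against T15 (80 calls) gave 166 at a pseudocount of 5, 333 without a filter, 2 with a mean over 50, 33 under quantile normalization, 35 without the trend, 26 with all 18 libraries and 0 to 980 with 1 left out. T5 against Q79K-W80R (236 calls) gave 64 with all 18 libraries and 41 to 395 with 1 left out. For these shifts the cause was not tested. Depth is known only approximately, which limits genes with few reads.

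Log2FC of these genes, none called, turned sign. Under quantile normalization they were -0.082 in Apoltp, -0.056 in Yp2, 0.079 in Yp3, -0.00156 in tai and 0.055 in w. With 1 library left out they ranged over -0.42 to 0.36 in Apoltp, -0.13 to 0.23 in Cadps, -0.096 to 0.042 in Jheh1, -0.42 to 0.17 in REPTOR-BP, -0.28 to 0.031 in Yp1, -0.036 to 0.21 in Yp2 and -0.16 to 0.045 in w.

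A replicate block gave 267 calls (204 higher and 63 lower) in T5 against LP, 185 (82 higher and 103 lower) against WT, 817 (575 higher and 242 lower) against T15, 175 against Q79K-W80R and 0 against T1. Deviations of equal-numbered libraries correlated at 0.2, -0.000587 and -0.292 between T5 and LP and at -0.0762, 0.15 and 0.118 between T5 and WT. Between T5 and Q79K-W80R they correlated at 0.161, -0.0226 and 0.026. In every comparison the libraries are known to share only a number.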
